A study of Mus musculus with 16 samples.

Results

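The thrombospondins form a family of 5 genes in the mouse, Thbs1, Thbs2, Thbs3, Thbs4 and Comp, and all 5 were found by symbol among the 31055 features of single-cell RNA sequencing matrices from the thoracic aorta. The family was picked with earlier results on these cells in view, and its transcripts were followed in 4 classes of cells, cut by the counts of a few marker genes. Transcripts were counted as unique molecular identifiers (UMIs), summed per library over the cells of a class and given as counts per 1000000 UMIs of that sum (CPM).

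Thrombospondins are secreted, calcium-binding glycoproteins that sit between cells and the extracellular matrix. Thbs1 and Thbs2 assemble as trimers, carry the repeats that bind the receptor CD36, and are known for restraining the growth of new vessels, and Thbs1 is in addition known for releasing TGF-beta from its latent complex. Thbs3, Thbs4 and Comp (cartilage oligomeric matrix protein) assemble as pentamers, lack those repeats and are abundant in cartilage, tendon and other loaded connective tissue. In the vessel wall, thrombospondins bind integrins, CD47, collagens and fibronectin, and Thbs1 is induced by mechanical strain and injury.

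The 16 libraries were taken as 1 aorta of 1 mouse each. The mice were males of the 129S6/SvEv background, since the Myh11-CreER transgene is carried on the Y chromosome. That tamoxifen-inducible Cre, active in smooth muscle, was present in both genotypes, as was the tamoxifen treatment. Smad3+/+ mice were the controls, and the Smad3SmKO mice were homozygous for a floxed allele of Smad3, the transcription factor downstream of TGF-beta receptors. Aortas were taken 10 weeks after deletion from 2 Smad3+/+ mice and 2 mice labelled Smad3SmKO, and 18 weeks after deletion from 5 Smad3+/+ mice and 7 labelled Smad3SmKO. All libraries of 10 weeks belonged to batch 4 and were digested for 60 min. There, the 2 controls carried the Myh11-GFP tracer and the 2 libraries labelled Smad3SmKO did not, so tracer and genotype cannot be told apart at 10 weeks. At 18 weeks, 7 libraries (batches 1 to 3) were digested for 30 min and carried no tracer, and 5 libraries (batches 5 and 6) were digested for 60 min and carried it. Batches 1, 2, 3 and 6 held both genotypes.

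Of 66349 barcodes with 508775009 UMIs, between 12539539 and 52843031 per library, 50858 cells passed the quality limits. The marker rules gave 8950 vascular smooth muscle cells (VSMCs: at least 5 UMIs of Myh11 and more than of Dcn), 36066 fibroblasts (at least 5 of Dcn and more than of Myh11), 3303 endothelial cells (at least 2 of Pecam1 and Cdh5) and 3357 leukocytes (at least 2 of Ptprc and Tyrobp). All 8 VSMC markers, all 7 fibroblast markers and all 6 endothelial markers were detected in the class named for them. The lists include the genes that cut the classes, and detection alone did not set the classes apart. All 8 VSMC markers were also detected in fibroblasts, and all 7 fibroblast markers in VSMCs. Summed VSMC markers had medians of 55000 CPM in VSMCs and 2120 in fibroblasts. Summed fibroblast markers had medians of 25800 CPM in fibroblasts and 1640 in VSMCs. The endothelial rule was not clean, since 54.9% of its cells also met the fibroblast rule, and the fibroblast gene Dcn stood at a median of 6590 CPM there, against 111 CPM in endothelial cells that met no other rule. In leukocytes the corresponding medians of Dcn were 897 and 106 CPM. Levels are therefore given for the classes as cut and, where it matters, for the 1226 endothelial cells and 2946 leukocytes of exactly 1 class. Smad3 itself was not lower in VSMCs of libraries labelled Smad3SmKO (edgeR quasi-likelihood log2 fold change 0.45 ± 0.38 (SE) at 10 weeks and 0.04 ± 0.38 at 18 weeks, Benjamini-Hochberg adjusted p 1 in both). The 3' counts do not show which exons a transcript holds, so the deletion could not be read from them.

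In mm10 coordinates, Thbs1 (ENSMUSG00000040152) spans chr2:118111876-118127133 on the plus strand and overlaps Gm29233 on the other strand. Thbs2 (ENSMUSG00000023885) spans chr17:14665500-14694235 on the minus strand. Thbs3 (ENSMUSG00000028047) spans chr3:89215180-89226837 on the plus strand and overlaps Mtx1 on the other strand. Thbs4 (ENSMUSG00000021702) spans chr13:92751590-92794818 on the minus strand, and Comp (ENSMUSG00000031849) spans chr8:70373558-70382066 on the plus strand. Promoter sequences of RefSeq (build GRCm38.p6) were at hand for Thbs2, Thbs3 and Thbs4, and are shown because the study concerns a factor, Smad3, that binds the letters CAGAC. Each line below holds the 250 bases before the RefSeq start of the gene, written 5' to 3' on the strand of the gene, for Thbs2 chr17:14694263-14694512 (minus strand), for Thbs3 chr3:89214930-89215179 (plus strand) and for Thbs4 chr13:92794819-92795068 (minus strand). Capitals mark CAGAC or its reverse complement GTCTG.

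Thbs2: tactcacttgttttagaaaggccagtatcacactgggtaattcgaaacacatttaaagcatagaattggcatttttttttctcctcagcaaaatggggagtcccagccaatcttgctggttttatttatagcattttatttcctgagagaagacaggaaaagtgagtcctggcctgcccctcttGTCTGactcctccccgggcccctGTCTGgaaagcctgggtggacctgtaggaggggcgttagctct
Thbs3: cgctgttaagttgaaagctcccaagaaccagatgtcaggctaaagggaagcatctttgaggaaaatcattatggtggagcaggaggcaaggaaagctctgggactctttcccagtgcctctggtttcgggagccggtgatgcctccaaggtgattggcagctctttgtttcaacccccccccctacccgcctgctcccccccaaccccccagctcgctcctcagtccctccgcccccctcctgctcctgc
Thbs4: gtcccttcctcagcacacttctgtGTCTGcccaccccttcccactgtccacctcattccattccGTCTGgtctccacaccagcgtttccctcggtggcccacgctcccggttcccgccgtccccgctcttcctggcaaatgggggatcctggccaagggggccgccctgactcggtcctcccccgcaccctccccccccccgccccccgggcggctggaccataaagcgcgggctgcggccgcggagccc

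The letters CAGAC, searched on both strands, occurred 2 times before Thbs2, 2 times before Thbs4 and 0 times before Thbs3. The same letters were found in 42.2% of the 32851 promoter windows of that length. The other letters were counted on both strands too. TATAAA matched before Thbs2 (12.4% of windows) as its reverse complement TTTATA, and not on the strand of the gene. GGGCGG occurred 1 time before Thbs3 and 3 times before Thbs4 (32.7% of windows), and TGACTCA, which AP-1 binds, was in none of the 3 (4.46% of windows). The GC content of the windows was 46.8% for Thbs2, 58.8% for Thbs3 and 70.8% for Thbs4. These matches describe the letters and no binding.

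In the aorta, fibroblasts held the higher levels of Thbs2, Thbs3, Thbs4 and Comp, while Thbs1 was shared between fibroblasts and VSMCs. The classes were cut from the same cells, so their order is a description without a test. Over the 16 libraries, the median level of Thbs1 was 138 CPM in fibroblasts, 117 in VSMCs, 98.8 in endothelium and 16.9 in leukocytes. Fibroblasts were above VSMCs in 11 of 16 libraries, so these neighbours in the order did not separate. In endothelial cells of exactly 1 class the median of Thbs1 was 38.9 CPM.

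Thbs2 stood at a median of 45.9 CPM in fibroblasts, 16.2 in VSMCs, 19.8 in endothelium and 4.93 in leukocytes. Thbs3 followed the same order, with medians of 52.9, 12.3, 30.5 and 5.61 CPM. For both genes fibroblasts were above VSMCs in 16 of 16 libraries. In endothelial cells of exactly 1 class the medians were 4.02 CPM for Thbs2 and 3.0 CPM for Thbs3, so their endothelial levels went with the cells that also met the fibroblast rule.

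Comp, a pentameric member, had a median of 455 CPM in fibroblasts against 14.5 in VSMCs and 21.2 in leukocytes, and fibroblasts were above VSMCs in 16 of 16 libraries. Its endothelial median was 325 CPM as cut and 14.9 CPM in cells of exactly 1 class, where fibroblasts were above endothelium in 15 of 15 libraries. Thbs4 had a median of 16.6 CPM in fibroblasts and 1.92 in endothelium, and a median of 0 in VSMCs and leukocytes. Over all libraries 17 UMIs of Thbs4 were counted in VSMCs, against 9458 in fibroblasts.

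**Figure D1:**
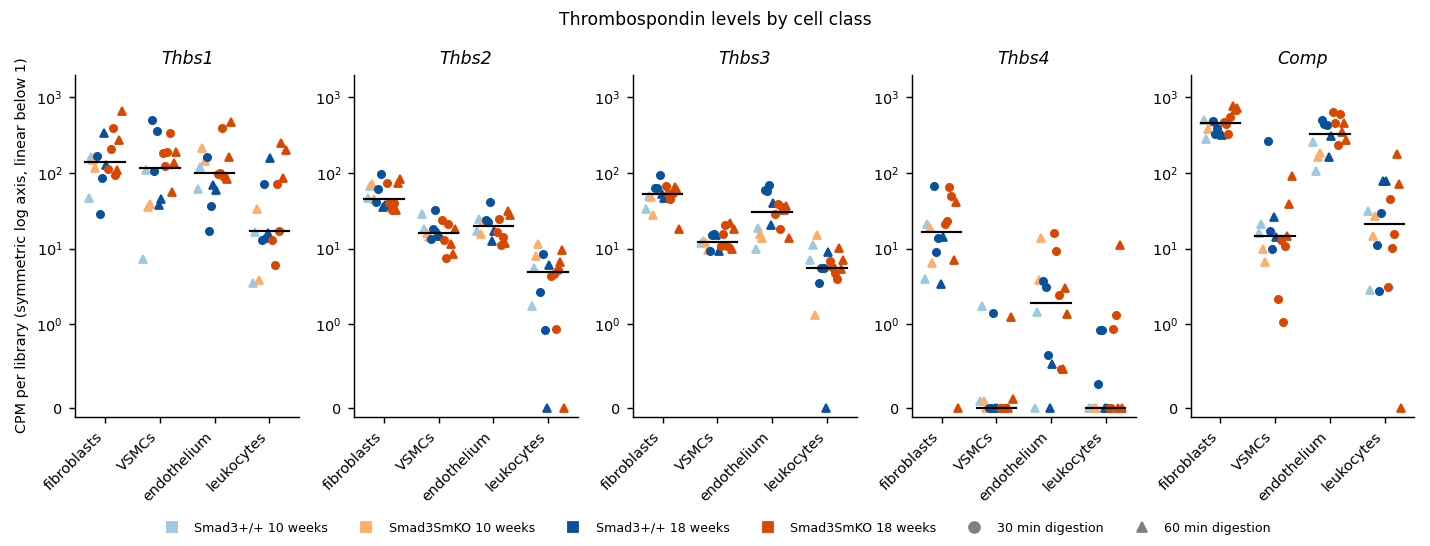
Level of each thrombospondin in CPM (vertical axis, symmetric log scale that is linear below 1) in the 4 cell classes as cut, 1 point per library, coloured by genotype and time and shaped by digestion time, with a bar at the median of the 16 libraries. Fibroblasts sit above VSMCs in all 16 libraries for Thbs2, Thbs3 and Comp, whereas the points of Thbs1 overlap across fibroblasts, VSMCs and endothelium.

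Depth differed between cells, so each cell was thinned to 2000 UMIs before the share of cells with a UMI was taken. In fibroblasts the median share over libraries was 12.5% for Thbs1 (range 3.9% to 44.9%), 7.62% for Thbs2, 9.99% for Thbs3, 0.947% for Thbs4 and 19.7% for Comp (15.3% to 34.7%). In VSMCs it was 9.15% for Thbs1, 3.48% for Thbs2, 2.41% for Thbs3, 0% for Thbs4 and 2.58% for Comp. Leukocytes, which are not known to make Comp or Thbs3, had shares of 1.75% for Comp, 0.852% for Thbs3 and 0.315% for Thbs2 at a median depth of 6590 UMIs per cell, against 10800 in VSMCs and 10900 in fibroblasts. Without thinning the leukocyte shares were 5.34%, 3.76% and 2.26%, and the fibroblast shares 29.7%, 37.5% and 26.0%, in the same order. The leukocyte shares include cells that also met another class rule, and no background of empty droplets was measured. For Comp, the thinned VSMC share was close to the leukocyte share, whereas in cells of exactly 1 class the median level was 15.3 CPM in VSMCs and 4.12 CPM in leukocytes.

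Thbs1, the member known for acting on latent TGF-beta, was unevenly spread among VSMCs. The VSMCs were divided by markers that the study named for VSMC subsets, into cells with more UMIs of Notch3 and Enpep than of Ptprz1 and Tes (933 cells) and cells with more of Ptprz1 and Tes (5966 cells), and 2051 cells with equal counts stayed in neither group. Notch3 is a receptor of mural cells and Enpep an aminopeptidase that cleaves angiotensin, while Ptprz1 is a receptor phosphatase and Tes a focal adhesion protein. In the 14 libraries with at least 10 cells in each group, Thbs1 ranged from 88.2 to 910 CPM in the Notch3 and Enpep group (median 332) and from 0 to 155 CPM in the Ptprz1 and Tes group (median 20.1). It was higher in the former in 14 of 14 libraries, and the medians differed 16.5-fold. The summed VSMC markers were alike in the groups, with medians of 54700 and 54200 CPM. Since the groups were cut from the same cells, the difference is a description and has no test.

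The difference was also present in narrower cuts. Without every cell that held a UMI of the pericyte genes Vtn, Higd1b or Kcnj8, which left 717 and 5049 cells, the ratio of medians was 13.6 (13 of 13 libraries), and with groups that differed by a margin of at least 2 UMIs it was 18.4 (13 of 13). After thinning, 30.9% of the Notch3 and Enpep group held a UMI of Thbs1 at the median, against 2.25% of the Ptprz1 and Tes group, at median depths of 10800 and 11900 UMIs. Comp was higher in the Notch3 and Enpep group in 10 of 14 libraries, with medians of 26.3 and 7.97 CPM, a 3.3-fold ratio. Thbs2 was higher there in 4 of 14 (12.8 against 15.5) and Thbs3 in 3 of 14 (10.2 against 13.3).

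The make-up of the VSMCs moved with digestion. At 18 weeks the Notch3 and Enpep group was 54.3% ± 18.6 (SD, n = 7) of both groups after 30 min and 15.4% ± 4.82 (n = 5) after 60 min, and the ranges, 29.3% to 80.0% and 10.6% to 22.6%, did not overlap. The difference of -38.9 percentage points gave p = 0.00253 in a two-sided exact permutation test over libraries, the smallest p possible. Libraries of 1 batch shared a digestion time, however, and with the batch mean as the unit the shares were 40.0%, 62.9% and 67.3% in batches 1, 2 and 3 and 16.6% and 14.7% in batches 5 and 6. Over these batch means the exact permutation p was 0.2, again the smallest possible, so a test over batches could not pass 0.05. By genotype at 18 weeks the share was 33.5% ± 20.7 in the libraries labelled Smad3SmKO and 44.6% ± 30.1 in Smad3+/+ (exact permutation p = 0.444). Within the 30 min digestions that difference was -19.7 points (exact permutation p = 0.229, smallest possible 0.0571) and within the 60 min digestions 3.61 points (exact permutation p = 0.6, smallest possible 0.2). At 10 weeks, where all digestions lasted 60 min, the share was 4.34% and 14.7% in Smad3+/+ and 7.91% and 9.99% in the libraries labelled Smad3SmKO.

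**Figure D2:**
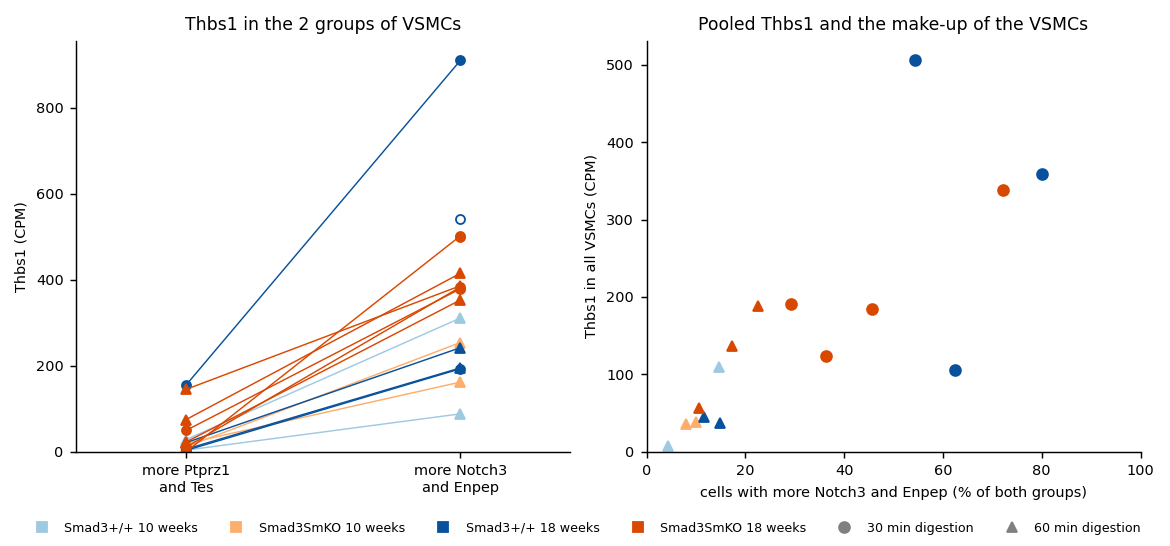
Left, Thbs1 in CPM in the VSMCs with more Ptprz1 and Tes and in those with more Notch3 and Enpep, with a line joining the values of 1 library and open symbols for the 2 libraries that had under 10 cells with more Ptprz1 and Tes. Right, Thbs1 in all VSMCs of a library against the percentage of Notch3 and Enpep cells among both groups. All 14 lines rise to the right, and the libraries digested for 60 min lie below 23% on the horizontal axis of the right panel.

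Within fibroblasts, most UMIs of Thbs4 lay in few cells. The 361 fibroblasts with the most UMIs of a gene, 1% of the class, held 94.8% of the UMIs of Thbs4, against 28.9% for Comp, 26.3% for Thbs1, 16.2% for Thbs2 and 10.3% for Thbs3. The highest count in a fibroblast was 684 UMIs for Thbs4 and 650 for Comp. Groups of fibroblasts were then cut by UMIs of marker genes that had not been used for the class. Where several genes are named, their UMIs were summed, and a cell need not hold each of them. They overlap, they are ranges of a score and not cell types, and their values are descriptions.

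Chad encodes chondroadherin, a leucine-rich protein of cartilage matrix. The 1333 fibroblasts with at least 2 UMIs of Chad, 3.7% of the class, held 46.0% of the Thbs4 UMIs and 23.6% of the Comp UMIs. Pooled over libraries, Thbs4 was at 304 CPM in these cells against 15 in the other fibroblasts, and Comp at 2620 against 355 CPM, higher in 15 of 15 libraries for both. Thbs1 followed in 14 of 15 libraries (389 against 180 CPM). Thbs3 went the other way, with 32.9 against 56.6 CPM and 0 of 15 libraries higher, and Thbs2 was near equal (48.8 against 51.5 CPM).

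Fibroblasts with UMIs of Tnfrsf11b, which encodes the decoy receptor osteoprotegerin, of Dio2 and of Hhip also had more Comp (880 against 314 CPM, 16 of 16 libraries) but less Thbs2 (17.5 against 61.8 CPM, higher in 0 of 16). Those with Coch and Wif1, an inhibitor of Wnt ligands, were high in Thbs1 (331 against 168 CPM, 15 of 16 libraries) and Thbs2 (78.3 against 47.6 CPM, 15 of 16). The highest pooled level of Thbs3, 78.5 CPM against 53.0, was in the fibroblasts with Cnmd, Inmt and Ggt5 (15 of 15 libraries), where Thbs1 stood at 59.2 against 203 CPM. Thbs4 had a second group with a high level in the cells with Foxd1 and Col11a1 (146 against 15.9 CPM, 14 of 15 libraries).

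The largest of the cut groups, 69.2% of fibroblasts with UMIs of the adventitial progenitor markers Dpp4 and Pi16, held 86.7% of the Thbs3 UMIs (62.9 against 31.8 CPM, 16 of 16 libraries) and had less Thbs1 than the rest (165 against 264 CPM, higher in 1 of 16). In the fibroblasts with Hsd11b1, F3 and Vegfd, Thbs1 (103 against 262 CPM) and Thbs4 (12.4 against 38.9 CPM) were higher in 0 of 16 libraries. In those with Has1, Spon2 and Cxcl5, Comp was at 255 against 509 CPM (0 of 16). In the fibroblasts with the interferon-induced genes Ifit3 and Isg15, Comp was at 402 against 451 CPM (higher in 9 of 15 libraries), Thbs1 at 143 against 193 CPM (2 of 15) and Thbs3 at 48.1 against 56.4 CPM (1 of 15).

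**Figure D3:**
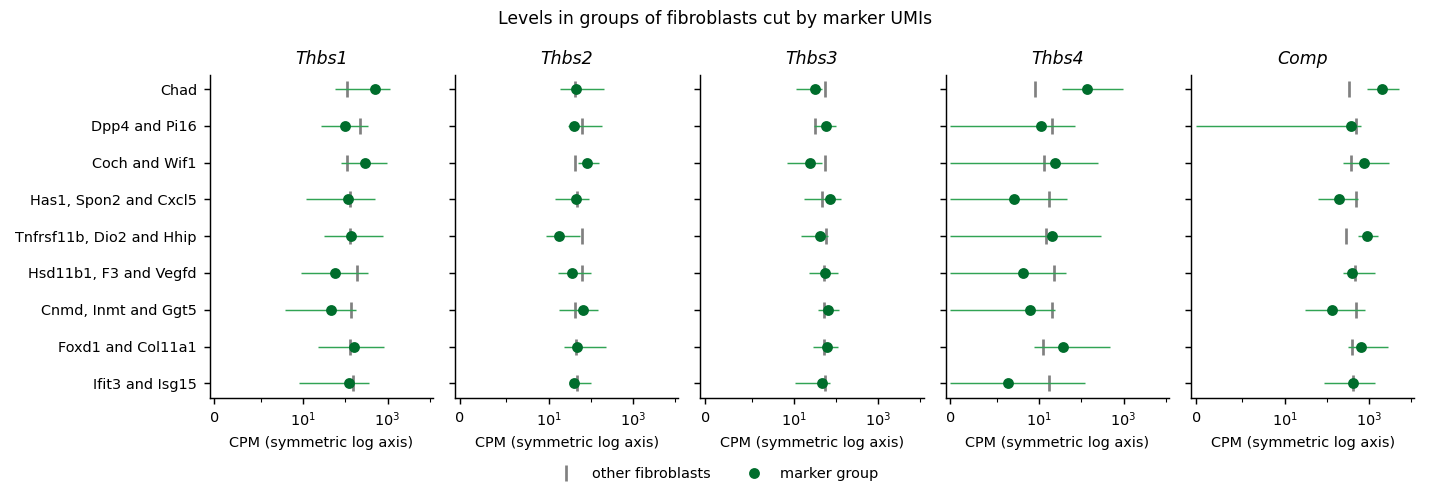
Level of each thrombospondin in CPM (horizontal axis, symmetric log scale) in 9 groups of fibroblasts cut by UMIs of the named markers. Green points are medians over the libraries with at least 10 cells of the group, green lines run from the lowest to the highest library, and grey ticks are the medians in the other fibroblasts of the same libraries. Thbs4 and Comp stand highest in the Chad group, with medians of 135 and 2090 CPM against 8.08 and 345 CPM in the other fibroblasts.

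Detection of the members in the same fibroblast was read from cells thinned to 2000 UMIs. Of 423 fibroblasts with a UMI of Thbs4, 61.2% held a UMI of Comp and 50.8% a UMI of Thbs1, against 20.9% and 15.7% of the fibroblasts without Thbs4, and both shares were higher in 11 of the 11 libraries with at least 10 such cells. In the 1187 thinned cells with Chad, 57.5% held Comp and 9.35% held Thbs4, against 20.2% and 0.895%. Thbs3 was found in 7.95% of cells with Thbs1 and 10.2% of cells without it (higher in 2 of 16 libraries). Thbs2 and Comp showed little relation (21.3% and 21.4%).

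A single cell could carry much of a library's count. In fibroblasts the top cell held a median of 21.8% of the Thbs4 UMIs of a library and up to 76.0%, while for Thbs1, Thbs2, Thbs3 and Comp the medians were 3.33%, 1.44%, 0.776% and 2.96%. In VSMCs the top cell held a median of 17.4% of the Comp UMIs and up to 100%. The Smad3+/+ library of 18 weeks with the most Comp in VSMCs, replicate 1, had 283 UMIs of which 268 lay in 1 of its 97 VSMCs, and its level was 267 CPM with and 14.4 CPM without that cell. In leukocytes the top cell held a median of 45.5% of Comp and 34.7% of Thbs1. Among the leukocytes, the 2029 cells with the macrophage genes C1qa, C1qb and Csf1r had Thbs1 at 77.2 CPM when pooled, against 144 CPM in the other leukocytes. It was higher there in 7 of 15 libraries, with a median of 14.1 CPM. The 808 cells with the neutrophil genes S100a8 and S100a9, and with Csf3r or Retnlg, had 164 against 86.4 CPM pooled. Thbs1 was higher in them in 6 of 12 libraries, with a median of 43.6 CPM. In the 92 cells with Cd3 genes, which mark T cells, 1 UMI of Thbs1 was counted.

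**Figure D4:**
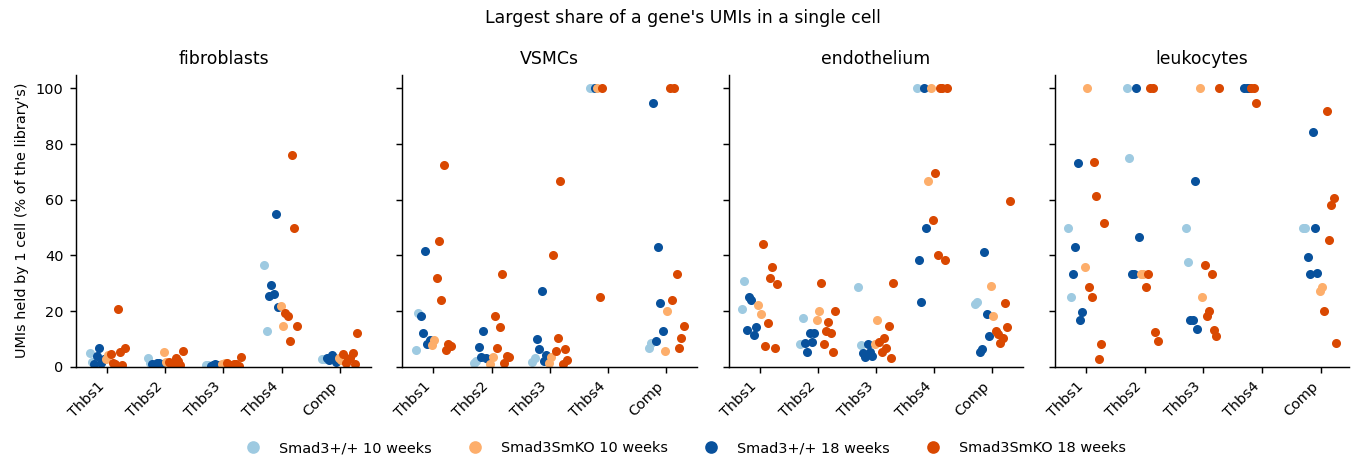
Percentage of the UMIs of each thrombospondin in a library and class that lay in the cell with the most of them (vertical axis), 1 point per library, coloured by genotype and time; libraries with no UMI of the gene have no point. The points for Thbs1, Thbs2, Thbs3 and Comp in fibroblasts stay at or below 20.8%, whereas those for Thbs4 reach 76.0%, and for Comp in VSMCs 100%.

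The comparison of genotypes asked whether thrombospondin transcripts depended on Smad3 in VSMCs, and whether they differed in the neighbouring cells. No member passed the test in any class, at either time, or in the difference between the times (edgeR quasi-likelihood test with batch as a term, Benjamini-Hochberg adjusted over all genes tested). The background was as low. In VSMCs, the test called 0.0422% of 11852 genes for the later time, 0% for the earlier time and 0.00844% for the change from one to the other, and 0% of 14626 genes in fibroblasts, 0% of 11683 in endothelium and 0% of 9770 in leukocytes were called in any of the 3 comparisons. At an unadjusted p under 0.05, the fit for 18 weeks gave 363 genes in fibroblasts, 362 in endothelium and 140 in leukocytes, and DESeq2 called 3, 0 and 2 genes there, none of them a member. Thbs4 lay below the filter on low counts in VSMCs and leukocytes and was not tested there. Without that filter, Comp passed the test in VSMCs at 18 and 10 weeks. So did Comp in the VSMCs with more Ptprz1 and Tes and Thbs1 in endothelium, both at 18 weeks. Their log2 fold changes were nearly unchanged (-1.54, -1.09, 1.73 and 1.30), with smaller errors. For Comp in VSMCs at 18 weeks the SE was 0.21 in place of 0.88. The background rose as well, with 134 genes passing in VSMCs at 18 weeks without the filter, in place of 5. Over all settings tried, the genes called reached 51 in VSMCs at 10 weeks (main fit 0). They reached 136 in the VSMCs with more Ptprz1 and Tes (main fit 1) and 120 in endothelium (main fit 0) at 18 weeks.

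Thbs1 in VSMCs was at 7.38 and 109 CPM in Smad3+/+ and at 35.8 and 38.5 CPM in the libraries labelled Smad3SmKO at 10 weeks. At 18 weeks the 5 Smad3+/+ libraries had 506, 106, 359, 37.3 and 45.5 CPM, and the 7 labelled Smad3SmKO lay between 56.8 and 338 CPM with a median of 184. The genotypes overlapped at both times, and of the 5 Smad3+/+ values at 18 weeks, 2 lay above and 2 below all 7 of the others. The log2 fold change was -0.69 ± 0.98 (SE) at 10 weeks and 0.13 ± 0.66 at 18 weeks, with adjusted p of 1 in both fits. The latter was -0.71 without replicate 6 labelled Smad3SmKO and 1.02 without Smad3+/+ replicate 1.

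In the VSMCs with more Notch3 and Enpep, where Thbs1 was high, its mean was 417 ± 60.1 CPM (SD, n = 7) in the libraries labelled Smad3SmKO and 416 ± 312 CPM (n = 5) in Smad3+/+ at 18 weeks, with a log2 fold change of 0.13 ± 0.36 (adjusted p 1, 0% of 6784 genes called). In the VSMCs with more Ptprz1 and Tes the log2 fold change was 0.66 ± 1.07 (adjusted p 0.963, 0.00887% of 11269 genes called). Batch by batch at 18 weeks, the mean of Thbs1 in all VSMCs was higher for the Smad3SmKO label in 2 of 4 batches.

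In fibroblasts and in endothelium, 4 of 4 batches of 18 weeks had a higher mean of Thbs1 under the Smad3SmKO label, without the difference passing the test. These batches held 1 or 2 libraries per genotype. The share of all genes with such an order over batches was not counted, here or for the members below. The classes also share cells, since 54.9% of the endothelial cells met the fibroblast rule. Fibroblasts had 165, 28.8, 86.9, 341 and 127 CPM in the Smad3+/+ libraries, and 94.3 to 668 CPM with a median of 207.7 in the 7 labelled Smad3SmKO, so the groups overlapped. The log2 fold change was 0.77 ± 0.54 at 18 weeks (adjusted p 1) and 0.32 ± 0.79 at 10 weeks, when the levels were 46.2 and 160 CPM against 148 and 117 CPM. In endothelium, Smad3+/+ libraries had 164, 17, 36.6, 68.7 and 59.7 CPM at 18 weeks and those labelled Smad3SmKO 82.3 to 467 CPM with a median of 101. The endothelial log2 fold change was 1.31 ± 0.47, with an unadjusted p of 0.0153 and an adjusted p of 0.999, beside 362 of 11683 genes at an unadjusted p under 0.05. In endothelial cells of exactly 1 class it was 1.76 ± 0.85.

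Comp, the tendon and cartilage member, had a higher mean in fibroblasts under the Smad3SmKO label at 18 weeks that did not pass the test. The Smad3+/+ libraries of 18 weeks had 482, 323.2, 387, 346 and 315 CPM, and the 7 labelled Smad3SmKO had 323.1 to 757 CPM with a median of 556. The means were 565 ± 164 CPM (SD, n = 7) against 371 ± 68.3 CPM (n = 5), the log2 fold change 0.45 ± 0.23 (adjusted p 1), and the level was higher in 3 of 4 batches. Levels at 10 weeks were 504 and 281 CPM in Smad3+/+ against 387 and 477 CPM, with a log2 fold change of 0.16 ± 0.36. In VSMCs the log2 fold change of Comp at 18 weeks was -1.53 ± 0.88 (adjusted p 1). The sign depended on single libraries. Without Smad3+/+ replicate 1, the library with 268 of its 283 Comp UMIs in 1 cell, the log2 fold change was 0.64, and without replicate 6 labelled Smad3SmKO it was -4.60. Fitted to the 30 min libraries alone, it was -4.54 with an adjusted p of 0.0133, and that fit held the same library. Over the settings tried, 1 to 134 genes were called in this comparison, beside 5 in the main fit.

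Thbs2 in VSMCs had log2 fold changes below 0 at both times, and neither passed the test. Its levels were 28.7 and 18.4 CPM against 16.3 and 14.1 CPM at 10 weeks, and a log2 fold change of -0.60 ± 0.25 (adjusted p 1). Both controls were above both libraries labelled Smad3SmKO, an order that 14.8% of the 11852 genes tested there had. At 18 weeks, Smad3+/+ had 13.2, 18, 32.5, 16.1 and 14.5 CPM and the libraries labelled Smad3SmKO 7.61 to 23.8 CPM with a median of 13.0, a log2 fold change of -0.47 ± 0.25 (adjusted p 1), lower in 3 of 4 batches. In fibroblasts it was 0.08 ± 0.32 at 18 weeks. For Thbs3 the log2 fold changes at 18 weeks were 0.00 ± 0.27 in VSMCs and -0.14 ± 0.29 in fibroblasts (adjusted p 1 in both). In endothelium Thbs3 had means of 29.0 ± 9.55 CPM (SD, n = 7) under the Smad3SmKO label and 49.4 ± 19.6 CPM (n = 5) in Smad3+/+, lower in 3 of 4 batches, and a log2 fold change of -0.60 ± 0.31 that did not pass the test (adjusted p 0.999).

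Thbs4 in fibroblasts was at 67.8, 9, 13.9, 3.45 and 14.4 CPM in Smad3+/+ at 18 weeks and between 0 and 64.4 CPM with a median of 23.3 in the libraries labelled Smad3SmKO. Its log2 fold change was 1.09 ± 0.73 (adjusted p 1), and the value of 0 came from replicate 7, the library with the fewest kept cells (631). At 10 weeks the levels were 3.91 and 21.1 CPM against 18.8 and 6.45 CPM. With 1 cell holding up to 76.0% of a library's Thbs4, few cells set these levels.

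**Figure D5:**
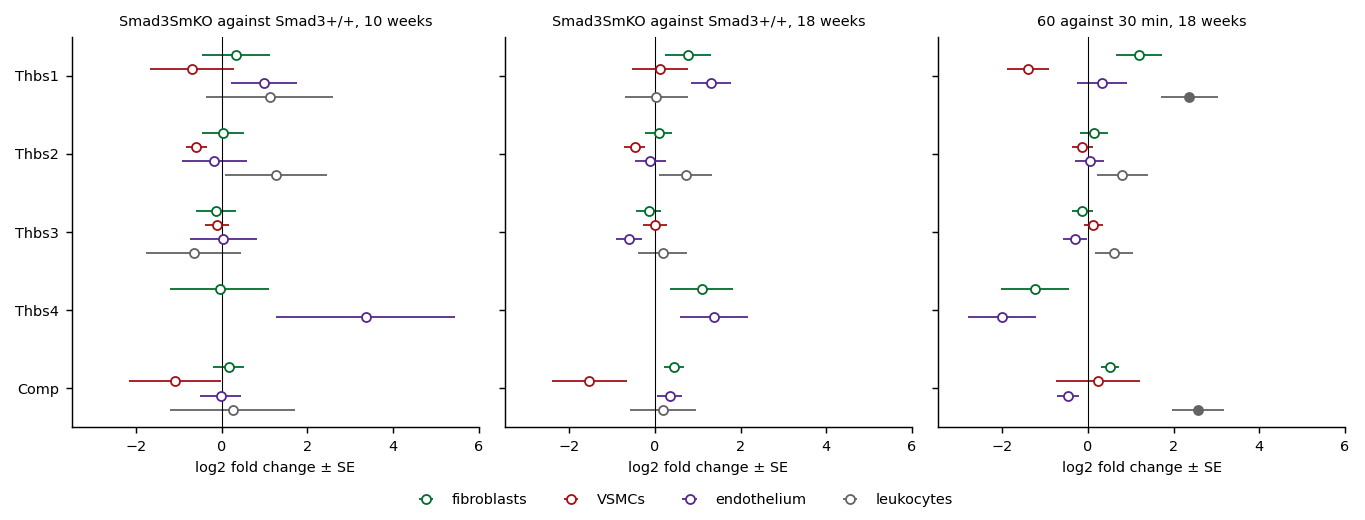
Log2 fold change ± SE of each thrombospondin (horizontal axis) from the edgeR fits, for the libraries labelled Smad3SmKO against Smad3+/+ at 10 and at 18 weeks and for 60 against 30 min of digestion at 18 weeks, coloured by class; filled points have an adjusted p under 0.05 and open points do not. The 2 filled points are Thbs1 and Comp in leukocytes, at 2.36 and 2.58 in the digestion panel.

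Digestion time is a technical factor, compared here over the 12 libraries of 18 weeks with genotype as a term. It coincides with batch and with the tracer, and these cannot be told apart. The 12 libraries came from 5 batches, each with 1 digestion time, and the fit treats the libraries as independent. Thbs1 and Comp were higher in leukocytes after 60 min at 18 weeks, 2 of the 4 members tested, in a comparison that called 6.81% of 10018 genes. The leukocyte levels of Thbs1 were 16.2, 156, 250, 86.8 and 204 CPM after 60 min and 6.15 to 71.6 CPM with all 7 libraries below 72 CPM after 30 min, so 1 library of 60 min lay inside the range of the others. The means were 142 ± 93.0 CPM (SD, n = 5) and 29.5 ± 28.9 CPM (n = 7), and the log2 fold change was 2.36 ± 0.67 (edgeR adjusted p 0.0490). Comp had 78.1, 78.4, 180.7, 71.7 and 0 CPM after 60 min against 2.79 to 45.1 CPM after 30 min, with a log2 fold change of 2.58 ± 0.61 (adjusted p 0.0226). In the library at 180.7 CPM, replicate 5 labelled Smad3SmKO, most Comp UMIs lay in 1 cell. The library at 0, replicate 7 labelled Smad3SmKO, had 13 leukocytes and was also the one at 204 CPM of Thbs1. The libraries of 10 weeks, also digested for 60 min, were not in this fit. Their leukocyte means of Thbs1 were 10.2 CPM in Smad3+/+ (n = 2) and 18.7 CPM under the Smad3SmKO label (n = 2). For Comp these means were 17.3 and 20.8 CPM. Those libraries differ in batch and time as well, and they were not tested against the libraries of 18 weeks.

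In the libraries of the digestion fit, fibroblast RNA in leukocytes was also higher after 60 min, with overlapping ranges. All 7 fibroblast markers, summed, were at 744 to 2400 CPM in leukocytes after 30 min and at 1570 to 3600 CPM after 60 min, and Dcn had medians of 680 and 1440 CPM. In leukocytes of exactly 1 class the fibroblast markers were at 184 to 342 and 152 to 490 CPM. There the log2 fold change of Thbs1 was 2.64 with an adjusted p of 0.0665, and Comp lay below the filter. Without Smad3+/+ replicate 5 the adjusted p was 0.175 for Thbs1 and 0.0608 for Comp, and without replicate 5 labelled Smad3SmKO 0.139 and 0.0931, so both calls were lost without either library. The call of Thbs1 was lost without any of 9 of the 12 libraries, with adjusted p between 0.0526 and 0.175. In the libraries of 10 weeks, also digested for 60 min, the summed fibroblast markers in leukocytes as cut were at 1870 to 3600 CPM. The Thbs1 means there were 10.2 CPM in Smad3+/+ and 18.7 CPM under the Smad3SmKO label, and the Comp means 17.3 and 20.8 CPM. Those libraries also differ in batch and time, and the part of fibroblast RNA in the leukocyte values was not tested. Of the genes of platelets, a known store of Thbs1, Ppbp, Itga2b and Gp9 had leukocyte medians of 1.88, 1.31 and 0 CPM after 30 min and 1.21, 1.52 and 0 CPM after 60 min. Pf4, which macrophages also express, had medians of 874 and 1200 CPM, and the part of platelets in the values was not tested.

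In VSMCs, Thbs1 did not pass the test between digestions, with levels after 60 min of 37.3, 45.5, 56.8, 136 and 188 CPM against 106 to 506 CPM after 30 min. The log2 fold change was -1.40 ± 0.49 (adjusted p 0.128, 3.29% of 11058 genes called). It passed without the filter on low counts (-1.35) and without replicate 7 labelled Smad3SmKO (-1.75, adjusted p 0.0459). The main fit called 364 genes, the settings tried called 17 to 1040, and leaving out 1 library gave 140 to 436. Within the cells with more Notch3 and Enpep the log2 fold change was -0.58 ± 0.31 (adjusted p 0.493, 0.492% of 7107 genes called), and within those with more Ptprz1 and Tes 0.29 ± 0.91 (adjusted p 0.956, 0.218% of 9647 genes called). The pooled value was larger in size than that within either group, but these values were not compared by a test. The fit for the Ptprz1 and Tes cells held 10 libraries and the others 12. The part of the shift in shares in the pooled value was not tested. In the Smad3+/+ libraries alone the pooled log2 fold change was -2.89 (adjusted p 0.0173), and in those labelled Smad3SmKO alone -0.52 (adjusted p 0.678). The difference between these was not tested, and the genes called in these subset fits lay within the range of 17 to 1040. Comp in the cells with more Ptprz1 and Tes had a log2 fold change of 2.21 ± 0.66 by digestion (adjusted p 0.192). It passed without replicate 5 labelled Smad3SmKO (2.58, adjusted p 0.0416). Leaving out 1 library gave 1 to 44 genes called in those cells, beside 21 in the main fit.

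Fibroblasts had Thbs1 at 341, 127, 108, 269 and 668 CPM after 60 min and at 28.8 to 391 CPM after 30 min, a log2 fold change of 1.19 ± 0.54 (adjusted p 0.248, 1.71% of 15267 genes called), opposite in sign to VSMCs. Comp in fibroblasts gave 0.51 ± 0.21 (adjusted p 0.192) and Thbs4 -1.25 ± 0.79 (adjusted p 0.416). In endothelium, where 2.85% of 11614 genes were called, Thbs4 gave -2.01 ± 0.79 (adjusted p 0.194) at levels of 15.9 CPM and less. Fibroblast RNA in this class was also lower after 60 min, with Dcn at medians of 11500 CPM after 30 min and 5270 CPM after 60 min. In endothelial cells of exactly 1 class the means of Thbs4 were 2.23 CPM after 30 min and 1.5 CPM after 60 min, from 10 and 5 UMIs. Thbs2 and Thbs3 differed by under 1 log2 unit between digestions in each of the 4 classes, and none of these values passed the test.

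Other genes of thrombospondin biology were read from 5 lists. The receptors (15 listed, such as Cd47, Cd36 and the integrins), the latent TGF-beta genes (8), the matrix partners and proteases (20), the immediate early genes (16) and the targets of serum response factor and Yap (9) gave 0 calls by genotype in each class and time tested. In VSMCs at 10 weeks all 8 latent TGF-beta genes had log2 fold changes below 0 (median -0.42, against -0.01 over all genes) and so had all 16 immediate early genes (median -0.90), with none called. At 18 weeks the medians of these lists were -0.01 and 0.00. The other lists also leaned below 0 in VSMCs at 10 weeks. There, 11 of 13 receptors, 6 of 7 serum response and Yap targets and 10 of 15 matrix genes were below 0. That comparison rests on 2 libraries per genotype of batch 4, where tracer and genotype cannot be told apart.

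Between digestions, 5 listed genes rose and 4 fell of 57 tested in VSMCs, 4 rose of 65 in fibroblasts and 5 rose of 60 in endothelium, beside 3.29%, 1.71% and 2.85% of all genes called. In VSMCs after 60 min, the receptor genes Itgb1 (log2 fold change 0.68 ± 0.14, adjusted p 0.0143) and Lrp1 (0.65 ± 0.15, adjusted p 0.0245) rose and Notch3, one of the genes that cut the VSMC groups, fell by 1.76 (adjusted p 0.00660), 3 of 13 tested. Of the matrix genes, fibronectin (Fn1, 1.19 ± 0.24) and Col1a1 (0.96 ± 0.20) rose and Adamts1, a protease that cleaves thrombospondins, fell by 1.65 (adjusted p 0.00230). Ltbp3, a binding protein of latent TGF-beta, rose by 0.72, and the stress genes Btg2 and Hspa1a fell by 1.05 and 1.66.

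In fibroblasts Fn1 (2.77 ± 0.60), the protease Plau (2.41 ± 0.55) and the immediate early genes Atf3 (1.41 ± 0.25) and Ier3 (1.41 ± 0.32) rose. In endothelium Adamts4 (2.43 ± 0.32), Adamts1 (0.86 ± 0.21), Itgb1 (0.86 ± 0.18), Atf3 (1.59 ± 0.32) and Ier3 (1.66 ± 0.29) rose, while the 7 fibroblast markers, summed, were at 11700 to 22300 CPM in this class after 30 min and at 5930 to 13800 CPM after 60 min. In leukocytes 10 of the 54 listed genes tested rose and the heat shock gene Hspa1a fell, beside 6.81% of all genes called. Those that rose included the matrix genes Bgn (1.55 ± 0.34), Mmp2 (1.22 ± 0.28), Mmp3 (1.74 ± 0.47) and Adamts1 (1.59 ± 0.37), the latent TGF-beta binding proteins Ltbp2, Ltbp3 and Ltbp4 (2.42, 1.48 and 1.42), Cacna2d1, Ctgf and Ankrd1. All of these had an edgeR adjusted p under 0.05. Fibroblasts also express matrix genes such as Bgn and Mmp2, and Dcn in these leukocytes had medians of 680 CPM after 30 min and 1440 CPM after 60 min. The part of fibroblast RNA in these changes was not tested.

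Likeness of pattern was ranked by Pearson's r of log2(CPM + 1), as a description. Over 64 sums of 16 libraries and 4 classes, which share the class difference, the gene most like Thbs1 was Pde1a (r = 0.705), followed by Slc7a2, Osmr, Farp1 and Adamts1. Comp was most like Pcolce (r = 0.867), which helps to process procollagen, and Mmp2 (r = 0.864). Thbs2 was most like Dkk3 (r = 0.88) and Thbs3 like Htra3 (r = 0.891). Thbs2 and Thbs3 had r = 0.794 with each other over the 64 sums but 0.0302 over the 16 fibroblast sums, so their likeness was that of the classes.

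Over the 16 fibroblast sums alone, Thbs1 was most like Ereg (r = 0.872), an epidermal growth factor ligand, Tnfrsf12a (0.854), Pvr (0.847), Gch1 (0.808) and Bdnf (0.8). Thbs3 was most like Plxdc1 (r = 0.927), Comp like Acp5 (r = 0.9), Thbs2 like Cdkn2c (r = 0.834) and Thbs4 like Ddx24 (r = 0.905). Thbs3 and Thbs4 had r = 0.606, with a Spearman's rho of 0.3. These libraries also share depth, digestion and batch, and 8021 genes were ranked.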

How the data were processed

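Single-cell RNA sequencing (10x 3' v3) was run on sorted live nucleated cells of the mouse thoracic aorta. The authors deposited UMI counts per gene and cell as matrices. The submitters' processing notes name Cell Ranger 6, Seurat 4 and mm10, while the matrix headers name Cell Ranger 4.0.0. Cells with over 600 and under 6000 genes, over 2000 and under 50000 UMIs and under 25% mitochondrial UMIs were kept. No doublet caller was run; 2442 kept cells met at least 2 class rules and 1642 met none. At most 11 barcodes were shared by any of 120 pairs of libraries. UMIs were summed per library and class (at least 10 cells) and tested in R 4.3.3 with edgeR 4.0.16 (filterByExpr, TMM, quasi-likelihood test, Benjamini-Hochberg over all genes, threshold 0.05), with batch as a term for genotype and genotype as a term for digestion. DESeq2 1.42.0 (Wald test) was an alternative. Shares of Notch3 and Enpep cells were compared by exact permutation with scipy 1.17.1. Cells were thinned to 2000 UMIs for shares and co-detection. The fit was tested on simulated data. The genes, lists and tests were chosen with earlier results of these data known. All 5 thrombospondins are named, and of other genes the called members of the lists and the 5 genes most like each (mean of at least 10 CPM). Each library is 1 mouse; libraries varied in depth, so CPM from classes with few cells are less precise, and no interval for counting error is given. The study used male mice. Alternatives are given in the closing section.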

Additional observations from a re-analysis of the deposited data

Results flagged for a closer look

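In 9 of 40 groups of 4 to 10 libraries, the highest or lowest library stood apart from the others by Dixon's criterion. For normally distributed values about 1 in 20 groups meets it. These are CPM of sparse counts, some of them at 0, so that rate need not hold for them. Comp in VSMCs was 267 CPM in Smad3+/+ replicate 1 at 18 weeks, against 26.4 CPM in the next library, and 268 of its 283 UMIs lay in 1 cell. Among the libraries labelled Smad3SmKO at 18 weeks, Comp in VSMCs was 90.1 CPM in replicate 7 (next 39.1), and Comp in leukocytes was 180.7 CPM in replicate 5 (next 71.7), where 650 of 1073 UMIs lay in 1 cell. Thbs4 in fibroblasts was 67.8 CPM in Smad3+/+ replicate 1 at 18 weeks (next 14.4). Thbs4 in VSMCs was 1.41 CPM in Smad3+/+ replicate 3 at 18 weeks (next 0) and 1.24 CPM in replicate 6 labelled Smad3SmKO (next 0.111), levels that rest on few of the 17 UMIs of Thbs4 in all VSMCs. In leukocytes Thbs4 was 11.1 CPM in replicate 6 labelled Smad3SmKO at 18 weeks (next 1.31). Thbs2 in VSMCs was 32.5 CPM in Smad3+/+ replicate 3 at 18 weeks (next 18.0). Thbs3 in fibroblasts was 18.3 CPM in replicate 7 labelled Smad3SmKO at 18 weeks, below the next library at 45.9 CPM, and that library had the fewest kept cells (631).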

How the results depend on the processing

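The labels give no replicate numbers shared between groups, so libraries were blocked by batch, which the genotype fits hold as a term, and not by number. The settings tried were another scaling (RLE), DESeq2, no filter on low counts, no batch term, cells of exactly 1 class, raised class thresholds, all deposited cells, 30 min or 60 min libraries alone, 1 genotype alone, and leaving out each library in turn. Removal of cells with pericyte genes, the margin of 2 UMIs, removal of the top cell and batch means as the unit for the share of Notch3 and Enpep cells were chosen after seeing the data. With batch means that share differed by -41.1 percentage points between digestions (exact permutation p = 0.2, the smallest possible), in place of -38.9 (p = 0.00253) over libraries. DESeq2 called no member by genotype and the same 2 members by digestion in leukocytes, but more genes in all: at 18 weeks 8 in VSMCs (edgeR 5), 3 in fibroblasts, 0 in endothelium and 2 in leukocytes, and by digestion 678 in VSMCs (364), 1223 in fibroblasts (261), 718 in endothelium (331) and 1116 in leukocytes (682). Without the filter 1 member passed, in place of 0, in VSMCs by genotype at 18 weeks and at 10 weeks and by digestion, in endothelium by genotype at 18 weeks and in the VSMCs with more Ptprz1 and Tes by genotype, and 134 genes passed in VSMCs at 18 weeks. In the 30 min libraries alone 1 member (Comp) passed by genotype in VSMCs. In the Smad3+/+ libraries alone 1 member (Thbs1) passed by digestion in VSMCs, and 0 passed in leukocytes. In leukocytes of exactly 1 class and in the libraries labelled Smad3SmKO alone, 0 members passed by digestion, in place of 2. Leaving out 1 library gave 0 to 2 members by digestion in leukocytes, 0 to 1 in VSMCs (1 without replicate 7 labelled Smad3SmKO) and 0 to 1 in the VSMCs with more Ptprz1 and Tes (Comp, 1 without replicate 5 labelled Smad3SmKO). The cause of these changes was not tested.

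Of the log2 fold changes under settings other than leaving out a library, 395 kept their direction and side of the threshold, and those that turned sign, none of which passed the test, were these. Without the batch term, the sign turned for Thbs1 -0.30 (from 0.13) in VSMCs by genotype at 18 weeks, Comp 0.16 (from -0.44) in VSMCs for the change between times and Thbs3 0.46 (from -0.18) and Comp 1.19 (from -0.28) in VSMCs with more Notch3 and Enpep by genotype at 18 weeks. In the 30 min libraries alone, the sign turned for Thbs1 -0.67 (from 0.13) in VSMCs by genotype at 18 weeks, Thbs2 -0.40 (from 0.08) in fibroblasts by genotype at 18 weeks, Thbs1 -0.04 (from 0.03) in leukocytes by genotype at 18 weeks, Thbs1 -0.23 (from 0.14) in VSMCs with more Notch3 and Enpep by genotype at 18 weeks and Thbs1 -2.61 (from 0.65) in VSMCs with more Ptprz1 and Tes by genotype at 18 weeks. In the 60 min libraries alone, the sign turned for Comp 1.30 (from -1.53) in VSMCs by genotype at 18 weeks, Thbs2 0.72 (from -0.10) in endothelium by genotype at 18 weeks and Thbs3 0.85 (from -0.18) and Comp 1.75 (from -0.28) in VSMCs with more Notch3 and Enpep by genotype at 18 weeks. In cells of exactly 1 class, the sign turned for Thbs3 0.03 (from -0.01) in fibroblasts for the change between times, Thbs1 -0.21 (from 0.03) in leukocytes by genotype at 18 weeks and Thbs1 -0.47 (from 0.34) in endothelium by digestion. With all class thresholds raised to 2 times, the sign turned for Thbs2 0.20 (from -0.10) and Comp -0.23 (from 0.35) in endothelium by genotype at 18 weeks and Thbs1 -0.13 (from 0.03) in leukocytes by genotype at 18 weeks. In all deposited cells, the sign turned for Thbs3 -0.01 (from 0.18) in leukocytes by genotype at 18 weeks. In the Smad3+/+ libraries alone, the sign turned for Thbs3 -0.08 (from 0.13) and Comp -2.24 (from 0.23) in VSMCs by digestion, Thbs2 -0.65 (from 0.15) and Comp -0.09 (from 0.51) in fibroblasts by digestion and Thbs1 -0.06 (from 0.34) and Thbs2 -0.78 (from 0.04) in endothelium by digestion. In the libraries labelled Smad3SmKO alone, the sign turned for Thbs3 0.03 (from -0.14) in fibroblasts by digestion and Thbs3 0.13 (from -0.31) in endothelium by digestion. Without cells holding Vtn, Higd1b or Kcnj8, the sign turned for Thbs1 -0.21 (from 0.14) in VSMCs with more Notch3 and Enpep by genotype at 18 weeks, Thbs3 -0.12 (from 0.02) in VSMCs with more Ptprz1 and Tes by genotype at 18 weeks and Thbs3 -0.01 (from 0.04) in VSMCs with more Ptprz1 and Tes by digestion. With VSMC groups cut at a margin of 2 UMIs, the sign turned for Thbs1 -0.38 (from 0.14) in VSMCs with more Notch3 and Enpep by genotype at 18 weeks and Thbs3 -0.15 (from 0.02) in VSMCs with more Ptprz1 and Tes by genotype at 18 weeks.

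Leaving out 1 library turned the sign of the following log2 fold changes, given as lowest to highest over the libraries left out. In VSMCs by genotype at 18 weeks, the range was Thbs1 -0.71 to 1.02 and Comp -4.60 to 0.64. In VSMCs by genotype at 10 weeks, the range was Thbs1 -1.66 to 2.48 and Thbs3 -0.31 to 0.06. In VSMCs for the change between times, the range was Thbs1 -2.37 to 1.77, Thbs2 -0.11 to 0.33, Thbs3 -0.18 to 0.30 and Comp -3.51 to 1.74. In fibroblasts by genotype at 18 weeks, the range was Thbs2 -0.39 to 0.26. In fibroblasts by genotype at 10 weeks, the range was Thbs1 -0.34 to 1.59, Thbs2 -0.34 to 0.38, Thbs3 -0.58 to 0.26, Thbs4 -1.0 to 1.76 and Comp -0.16 to 0.55. In fibroblasts for the change between times, the range was Thbs1 -0.82 to 1.11, Thbs2 -0.41 to 0.42, Thbs3 -0.40 to 0.44, Thbs4 -0.66 to 2.10 and Comp -0.11 to 0.61. In endothelium by genotype at 18 weeks, the range was Thbs2 -0.75 to 0.15. In leukocytes by genotype at 18 weeks, the range was Thbs1 -0.61 to 0.63 and Comp -0.34 to 0.90. In VSMCs by digestion, the range was Thbs2 -0.29 to 0.01, Thbs3 -0.02 to 0.27 and Comp -0.47 to 1.75. In fibroblasts by digestion, the range was Thbs2 -0.04 to 0.32 and Thbs3 -0.29 to 0.05. In endothelium by digestion, the range was Thbs1 -0.17 to 0.91 and Thbs2 -0.33 to 0.29. In VSMCs with more Notch3 and Enpep by genotype at 18 weeks, the range was Thbs1 -0.24 to 0.82, Thbs3 -0.58 to 0.22 and Comp -1.15 to 0.48. In VSMCs with more Ptprz1 and Tes by genotype at 18 weeks, the range was Thbs1 -2.67 to 2.53 and Thbs3 -0.19 to 0.63. In VSMCs with more Notch3 and Enpep by digestion, the range was Thbs2 -0.07 to 0.32. In VSMCs with more Ptprz1 and Tes by digestion, the range was Thbs1 -0.36 to 2.08 and Thbs3 -0.14 to 0.31.

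The median levels moved by more than the spread between libraries in cells of exactly 1 class for Thbs2 in endothelium (4.02 CPM) and leukocytes (0 CPM), Thbs3 in endothelium (3.00 CPM) and Comp in endothelium (14.9 CPM). Unthinned shares of cells with a UMI were higher than thinned ones: 23.8% for Thbs1 in fibroblasts and 19.0% in endothelium; 15.7%, 26.0%, 12% and 2.26% for Thbs2 in VSMCs, fibroblasts, endothelium and leukocytes; 11%, 37.5%, 20.3% and 3.76% for Thbs3 in the same order; 1.26% for Thbs4 in endothelium; and 8.32%, 29.7%, 23.6% and 5.34% for Comp in that order. Thbs4 had 17 UMIs in all VSMCs, where it lay below the filter.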

Other observations

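Among all kept cells, 4340 were cut by the summed UMIs of the pericyte genes Vtn, Higd1b and Kcnj8, and a cell need not hold each gene. They had more Comp (500 against 315 CPM pooled, 14 of 16 libraries) and less Thbs1 (82.2 against 171 CPM, higher in 2 of 16) than the other cells. The classes of these cells were not counted, so the values cannot be read as those of pericytes. The median of Comp over libraries was 545 CPM in this group, 455 CPM in fibroblasts and 14.5 CPM in VSMCs. All are values of groups cut by marker counts, without a test.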
